A study of Mus musculus with 6 samples.

Results

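Germline genes that somatic cells keep silent through promoter DNA methylation were followed across mouse embryonic stem cells (mESC) and epiblast-like cells (EpiLC). The set has 8 genes, namely Dazl, Ddx4, Mael, Stk31, Taf7l, Sycp1, Sycp3 and Tex11, and a gene counted as measured where a probe on the array carried its symbol alone. By that rule 7 of the 8 were measured, of 22180 genes measured in all, each by 1 probe. The probe that names Sycp3 also names Chpt1, so its signal belongs to no single gene and Sycp3 is not analysed here. RNA came from 6 cultures, each hybridised to 1 Affymetrix Mouse Gene 2.0 ST array. EpiLC, which resemble the early post-implantation epiblast, had been made from EB3 mESC in N2B27 medium with Activin A at 20 ng/ml plus bFGF at 12 ng/ml over 2 days on serum-coated dishes, whereas mESC were kept in N2B27 with LIF and BMP4. In each state 1 culture received 3 µM CHIR99021 (CHIR, which blocks the kinase GSK3 and thereby stabilises beta-catenin) with 1 µM PD0325901 (PD, an inhibitor of the kinase MEK upstream of ERK) for 24 hours, 1 received 3 µM CHIR alone for 24 hours, and 1 was left untreated. All cultures derive from 1 line, PD was never given alone, and where the 24 hours lay within the induction is not given in the sources used here.

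These genes serve germ cells. Dazl encodes an RNA-binding regulator of translation, Ddx4 the RNA helicase VASA, Mael a protein of the piRNA pathway that restrains transposons, and Stk31 a Tudor-domain protein with a kinase-like region. Taf7l encodes a germ cell form of a subunit of the general transcription factor TFIID. Sycp1 and Sycp3 encode parts of the synaptonemal complex that joins paired meiotic chromosomes, and Tex11 a protein of meiotic crossing over. In the mouse embryo their CpG-rich promoters gain methylation around implantation and lose it again in primordial germ cells, and in embryonic stem cells a repressor complex with E2F6, MGA, MAX and PCGF6 adds a layer of silencing. MGA with MAX binds the E-box CACGTG. Methylation itself was not measured here, so whether the promoters were methylated in these cultures is not known from these data.

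Upstream sequences of these genes held more CpG than the median promoter, and most held an E-box. RefSeq promoters (GRCm38.p6) were found for 7 of the 8 genes, with 2 starts for Stk31, and Tex11 had no entry. The 250 bases before each start held between 12 and 31 CpG, against a median of 6 over 32851 promoters of the same length. The E-box CACGTG, which reads the same on both strands, was found upstream of 6 of these 7 genes. It was found for 6.86% of 27025 genes with a promoter in the table and 9.76% of promoters with at least 12 CpG. Of 52 other germline genes with a promoter, from the lists described below, 25% held it. Counted back from the start, with -1 as the base just before it, its first base lay at -29 in Ddx4, -49 in Taf7l, -55 for the first Stk31 start, -64 in Sycp3, -94 in Sycp1 and -223 in Mael, and Sycp3 held another at -43. The stretches around the first E-box of these 6 genes follow because they share it, with 12 bases to either side and the E-box in capitals.
Ddx4 (chr13:112652322-112652351, minus strand): ggcgtccgcccgCACGTGcagccgtttaag
Taf7l (chrX:134476522-134476551, minus strand): accctcttatacCACGTGacagaactcgcc
Stk31 (chr6:49395472-49395501, plus strand): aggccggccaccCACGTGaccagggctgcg
Sycp3 (chr10:88459511-88459540, plus strand): gccgttggctccCACGTGagaacgggcatg
Sycp1 (chr3:102936177-102936206, minus strand): tagagaacccggCACGTGggaagggaaatc
Mael (chr1:166238950-166238979, minus strand): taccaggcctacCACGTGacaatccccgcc

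Dazl was the gene without that E-box in the window. The core of the E2F site, TCCCGC or its reverse complement GCGGGA, was found upstream of Ddx4, Mael and Sycp3, that is 3 of 7 genes. It was found for 18.8% of genes with a promoter in the table and 39.7% of promoters with at least 12 CpG. Of the 52 other germline genes, 36.5% held it. The E-box matches of Ddx4, Mael and Sycp3 overlap none of their E2F cores. The 250 bases before the starts of Dazl, Ddx4 and Mael follow, 5′ to 3′ on the gene's strand with every CpG in capitals, because these were the 3 genes at least 2-fold lower under CHIR in EpiLC. Dazl holds 20 CpG, Ddx4 holds 31 and Mael holds 18. A match describes the letters only, and no binding was measured.
Dazl (chr17:50293621-50293870, minus strand): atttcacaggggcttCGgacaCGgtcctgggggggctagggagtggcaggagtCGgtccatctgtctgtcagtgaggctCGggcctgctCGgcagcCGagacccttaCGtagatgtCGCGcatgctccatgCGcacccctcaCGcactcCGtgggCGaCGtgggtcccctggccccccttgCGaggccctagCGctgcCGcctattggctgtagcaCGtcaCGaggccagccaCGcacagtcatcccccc
Ddx4 (chr13:112652311-112652560, minus strand): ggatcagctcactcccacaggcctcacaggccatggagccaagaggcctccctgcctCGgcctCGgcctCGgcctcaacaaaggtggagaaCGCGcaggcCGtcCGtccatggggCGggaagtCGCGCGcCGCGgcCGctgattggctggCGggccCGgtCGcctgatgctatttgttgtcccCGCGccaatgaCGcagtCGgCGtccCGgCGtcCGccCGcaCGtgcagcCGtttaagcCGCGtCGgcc
Mael (chr1:166238745-166238994, minus strand): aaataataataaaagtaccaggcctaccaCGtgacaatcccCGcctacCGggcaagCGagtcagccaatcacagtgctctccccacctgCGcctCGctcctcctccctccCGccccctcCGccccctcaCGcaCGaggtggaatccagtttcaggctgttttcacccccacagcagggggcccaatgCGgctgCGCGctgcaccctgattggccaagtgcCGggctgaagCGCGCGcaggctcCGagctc

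**Figure D1:**
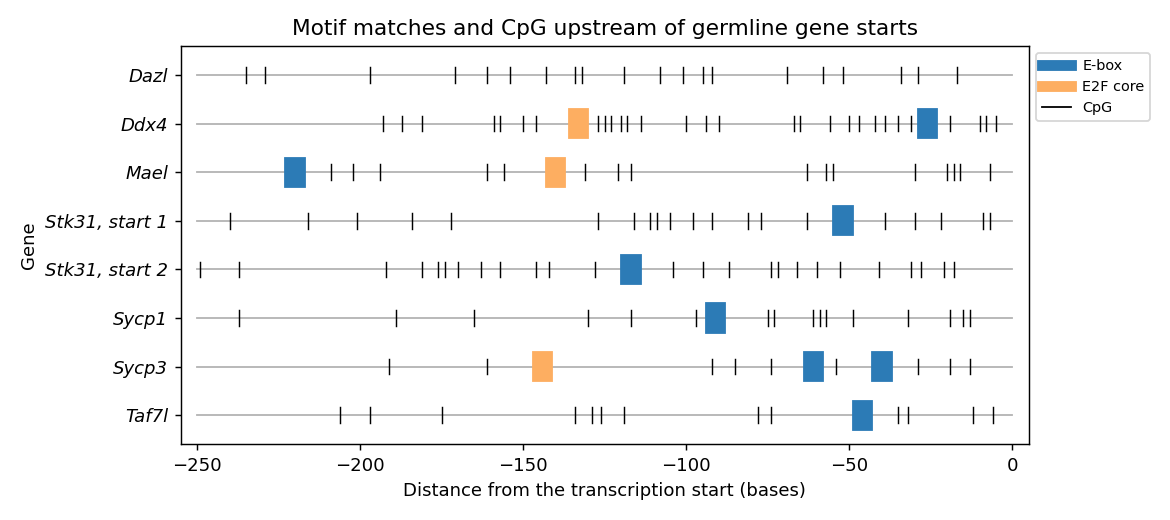
The x axis gives the distance in bases from the transcription start over the 250 bases upstream, with a line for each start of the 7 genes with a RefSeq promoter. Blue boxes mark the E-box, orange boxes the E2F core and black ticks each CpG. All lines but that of Dazl carry an E-box.

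With 1 array per group there were no replicates, so a difference between 2 arrays is given as a size without error or test, and the precision is limited by how few arrays there are. The values are the deposited linear intensities, whose lowest value was 16 on every array, so that differences of dim genes are compressed. Array medians, taken over every probe, ran from 60.5 to 65.2. Stk31, Taf7l and Tex11 were under that median on all 6 arrays and are therefore dim signals. Dazl was dim in the inhibitor-treated EpiLC, at 26.4 with CHIR and PD and 30.9 with CHIR. Both values were under the lower quartile of their array (32.5 and 32.8), so the sizes of Dazl that use them depend on the constant. Tests came from 1 limma model of cell state plus treatment over the 6 arrays, with Benjamini-Hochberg adjustment over all genes and a threshold of 0.05, in which the spread is the departure from additive effects of state and treatment (median residual SD 0.14 on the log2 scale). Over the 3 treatments the median log2 difference of EpiLC minus mESC was -3.48 over 10 naive pluripotency genes and 1.45 over 7 epiblast genes, but the epiblast genes were not alike in the 3 EpiLC cultures. Against untreated EpiLC, 4 of the 7 were at least 2-fold lower and 1 higher under CHIR (median -1.50), and 5 lower and 1 higher with CHIR and PD (median -1.89). Fgf5, a growth factor gene of the epiblast, had 39.4 with CHIR and PD, 770 with CHIR and 1258.5 untreated in EpiLC, against 19.9, 35.6 and 36.0 for the same treatments in mESC. Nanog, a naive pluripotency factor, had 2498 with CHIR and PD, 496 with CHIR and 709 untreated in EpiLC, against 2969, 2180 and 2118 in mESC. The inhibitor-treated EpiLC thus carried less of several epiblast markers, and the part of this in the germline values below was not tested.

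Between the states, germline RNA regulators did not move as 1 group. Dazl had intensities of 26.4 with CHIR and PD, 30.9 with CHIR and 97.6 untreated in EpiLC, against 114 with CHIR and PD, 133 with CHIR and 130.2 untreated in mESC. All 3 EpiLC arrays were below all 3 mESC arrays, and the gap was widest in the inhibitor-treated pairs, with a log2 difference of -2.11 in each and of -0.42 in the untreated pair. Over the 3 treatments Dazl was at -1.55 (SE 0.35) and did not pass limma's threshold (adjusted p = 0.0555), and the value moved with the pairs used. It was -2.11 (adjusted p = 0.0086) without the untreated pair, where the gap was smallest, -1.26 (0.137) without the CHIR pair and -1.26 (0.144) without the CHIR with PD pair. Stk31 had 33.2 with CHIR and PD, 29.4 with CHIR and 36.7 untreated in EpiLC, against 50.6, 48.7 and 48.5 for the same treatments in mESC. These groups did not overlap either, and Stk31 fell, with a log2 difference of -0.58 (SE 0.11, adjusted p = 0.0363 by limma), lower in 3 of 3 pairs. The call on Stk31, a dim gene, was lost without any 1 pair of arrays (adjusted p between 0.0592 and 0.211) and with either other constant in place of the 16 in the intensities (0.0526 with 4 and 0.0652 with 64).

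Ddx4 and Mael were higher in EpiLC in the untreated pair and lower in both inhibitor pairs. Ddx4 had 144.7 with CHIR and PD, 164 with CHIR and 369.9 untreated in EpiLC, against 154 with CHIR and PD, 186 with CHIR and 227 untreated in mESC. The log2 difference was 0.70 in the untreated pair, -0.09 with CHIR and PD and -0.18 with CHIR. Mael had 40.5 with CHIR and PD, 58.6 with CHIR and 191 untreated in EpiLC, against 62.9, 85.3 and 159.6 for the same treatments in mESC. The 2 states overlapped for both genes, and neither difference over the 3 treatments passed the limma threshold (Ddx4 0.15, SE 0.19, adjusted p = 0.705, and Mael -0.31, SE 0.19, adjusted p = 0.41).

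The transcription factor subunit gene Taf7l and the meiotic genes Sycp1 and Tex11 had the same order, higher in EpiLC in the untreated pair and lower in both inhibitor pairs. Taf7l had 31.7 with CHIR and PD, 34.3 with CHIR and 47.1 untreated in EpiLC, against 32.1, 38.1 and 39.0 for the same treatments in mESC. Sycp1 had 62.1 with CHIR and PD, 87.4 with CHIR and 86.7 untreated in EpiLC, against 78.1, 99.6 and 82.1 in mESC. Tex11 had 23.4 with CHIR and PD, 28.9 with CHIR and 51.4 untreated in EpiLC, against 33.7, 41.0 and 49.0 in mESC. Tex11 differed by -0.52 with CHIR and PD and by -0.50 with CHIR, close to Mael at -0.64 and -0.54. The EpiLC and mESC values of all 3 overlapped, and their limma differences over the 3 treatments were 0.04 for Taf7l (SE 0.12), -0.15 for Sycp1 (SE 0.12) and -0.32 for Tex11 (SE 0.15).

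In all, 1 of the 7 genes passed the limma threshold as lower in EpiLC and 0 as higher, against 4.15% of all genes in each direction. Dazl was at least 2-fold lower with CHIR and PD, where 3.11% of all genes were lower and 3.29% higher by that much, and with CHIR, where 2.63% were lower and 2.45% higher. In the untreated pair 0 of the 7 differed 2-fold, where 2.3% of all genes were lower and 1.47% higher. The 2 genes whose arrays did not overlap between the states, Dazl and Stk31, stand beside 14.4% of all genes with all 3 EpiLC arrays below all 3 mESC arrays. All 7 genes were lower in EpiLC with CHIR and PD, all 7 with CHIR, and 2 of 7 in the untreated pair, where 54%, 53.4% and 49.6% of all genes were lower. Their median log2 difference was -0.52 with CHIR and PD, -0.50 with CHIR and 0.08 in the untreated pair, against -0.03, -0.02 and 0.00 over all genes. In bulk cultures, fewer cells that express a gene and less RNA per cell cannot be told apart.

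**Figure D2:**
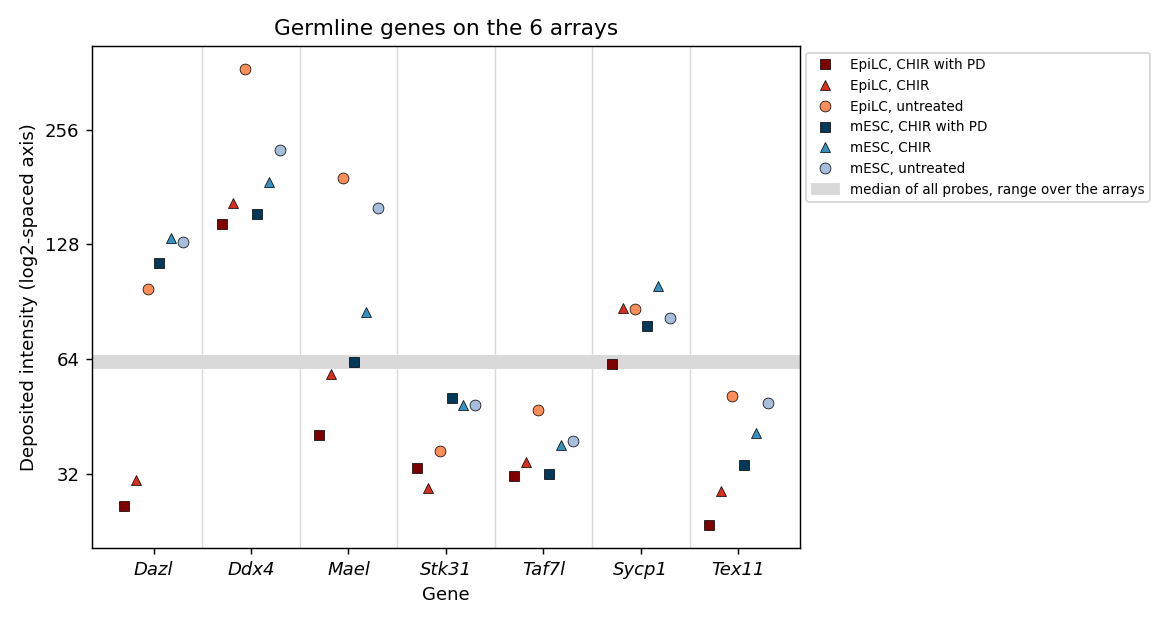
The y axis gives the deposited intensity on a log2-spaced axis and the x axis the 7 measured genes, with 1 point per array, EpiLC arrays to the left and mESC arrays to the right. Squares mark CHIR with PD, triangles CHIR and circles untreated cells, and the grey band is the range of the array medians over all probes (60.5 to 65.2). Dazl sits at 26.4 and 30.9 in the inhibitor-treated EpiLC, apart from its other 4 arrays.

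Under CHIR, 3 of the 7 genes were at least 2-fold lower in EpiLC, and none of the 7 passed a test for CHIR. Of the 7 genes, Mael (log2 difference -1.70), Dazl (-1.66) and Ddx4 (-1.17) were at least 2-fold lower under CHIR than in untreated EpiLC and 0 were higher by that much, where 0.929% of all genes were lower and 1.77% higher by that much. Tex11 was at -0.83, Taf7l at -0.46, Stk31 at -0.32 and Sycp1 at 0.01, and the median of the 7 was -0.83 against -0.03 over all genes. With a constant of 64 in place of the 16 in the intensities, 1 gene, Mael, was at least 2-fold lower.

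In mESC the same inhibitor came with smaller differences. Mael was lowest at a log2 difference of -0.90, Ddx4 was at -0.29, Tex11 at -0.26, Taf7l at -0.03, Stk31 at 0.00, Dazl at 0.03 and Sycp1 at 0.28. None of the 7 reached a 2-fold difference, which 0.153% of all genes did downwards and 0.185% upwards, and Mael alone did so with a constant of 4 in the intensities. The median of the 7 was -0.03.

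Set side by side, the CHIR response of all 7 genes was lower in EpiLC than in mESC by some amount. The share of all genes with a lower response by any amount was not counted, so this count has no background. For Dazl the EpiLC response minus the mESC response was -1.69 on the log2 scale, the value farthest from 0 among the 7, followed by Ddx4 at -0.89 and Mael at -0.80. A difference of -1 or below was found for 0.938% of all genes. This difference between the states could not be tested, since each state has 1 array per treatment. Over both states together 0 of 22180 genes, and so 0 of the 7, passed the limma threshold for CHIR, with 1613 genes at an unadjusted p under 0.05 and a smallest adjusted p of 0.28. Mael was at -1.30 (SE 0.24, limma adjusted p = 0.537), Ddx4 at -0.73 (SE 0.24) and Dazl at -0.82 (SE 0.43).

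With PD added to CHIR, 6 of the 7 genes were lower and Stk31 higher in each state, by less than 2-fold. Of all 22180 genes, 11651 were lower by any amount in EpiLC and 11544 in mESC. In EpiLC, Mael was lower by a log2 difference of -0.53, Sycp1 by -0.49, Tex11 by -0.30, Dazl by -0.22, Ddx4 by -0.18 and Taf7l by -0.11, while Stk31 was at 0.17. In mESC, Mael was at -0.44, Sycp1 at -0.35, Tex11 and Ddx4 at -0.28, Taf7l at -0.25, Dazl at -0.22 and Stk31 at 0.06. None of the 7 was 2-fold different in EpiLC, where 1.01% of all genes were lower and 1.04% higher by that much, or in mESC, where 0.523% were lower and 0.252% higher, and 0 of the 7 passed the limma threshold, where 0.018% of all genes did as lower. The limma values of the 7 over both states ran from Mael at -0.49 (SE 0.24) to Stk31 at 0.11 (SE 0.14).

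Both inhibitors together, set against no inhibitor, came with lower values of most of the 7 genes. Of all 22180 genes, 12428 were lower by any amount in EpiLC and 11399 in mESC. In EpiLC, Mael (-2.24), Dazl (-1.89), Ddx4 (-1.35) and Tex11 (-1.13) were at least 2-fold lower, 4 of 7 where 1.49% of all genes were lower and 2.62% higher, and Taf7l (-0.57), Sycp1 (-0.48) and Stk31 (-0.15) were lower by less. With a constant of 64 in the intensities 2 genes, Mael and Ddx4, were at least 2-fold lower. In mESC, Mael at -1.34 was the gene at least 2-fold lower, 1 of 7 where 0.848% of all genes were lower and 0.618% higher, and with a constant of 64 none was. The other genes in mESC were Ddx4 at -0.56, Tex11 at -0.54, Taf7l at -0.28, Dazl at -0.19, Sycp1 at -0.07 and Stk31 at 0.06. This comparison shares its untreated arrays with that of CHIR alone. In the limma fit over both states 0 of the 7 passed the threshold, where 0.0271% of all genes did as lower, and Mael came closest (-1.79, SE 0.24, adjusted p = 0.112), followed by Tex11 (-0.84, SE 0.18, adjusted p = 0.186) and Ddx4 (-0.96, SE 0.24, adjusted p = 0.21).

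**Figure D3:**
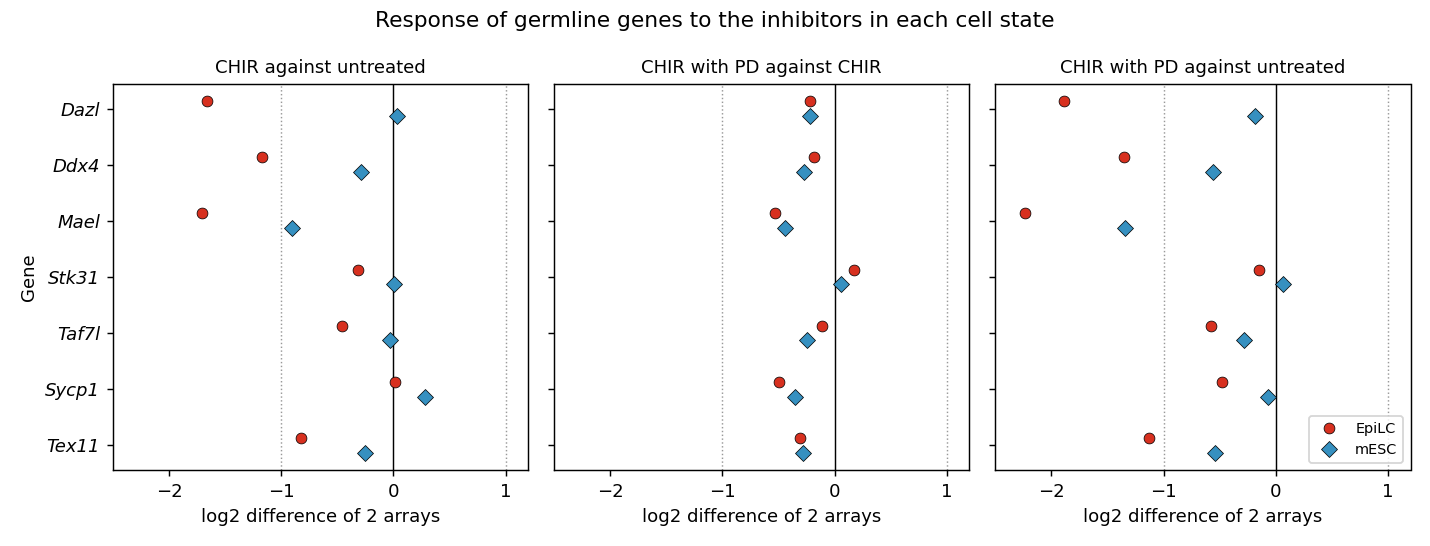
The x axis gives the log2 difference between 2 arrays of 1 state in 3 panels (CHIR over untreated, PD added to CHIR, and both inhibitors over untreated), and the y axis the 7 genes. Red circles are EpiLC, blue diamonds mESC, and dotted lines mark 2-fold differences. Mael, Dazl and Ddx4 lie beyond the 2-fold line for CHIR in EpiLC, and no gene does so in mESC.

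Other germline genes, 59 measured of 60 listed in 3 groups, held several with the pattern of Dazl and several without it. Over the 3 treatments, 10 of the 59 fell and 4 rose in EpiLC by the limma threshold, where 4.15% of all genes did in each direction (median log2 difference -0.14 against -0.02 over all genes). Among 18 germ granule and piRNA genes 3 fell, including Tdrd12, a Tudor-domain partner of the piRNA pathway (-2.21, SE 0.23, adjusted p = 0.007), and Rnf17 (-1.24, SE 0.18), and 2 rose, including the Tudor and KH domain gene Tdrkh (1.28, SE 0.20). Among 28 meiosis genes 5 fell and 2 rose. Those that fell included Hsf2bp, which acts with BRCA2 in meiotic recombination (-2.39, SE 0.24), Hormad1 of the meiotic chromosome axis (adjusted p = 0.0083, with no size given because 2 of its EpiLC arrays lay near the lowest intensity of the table), the cohesin subunit gene Stag3 (-1.57, SE 0.10) and Tex14 of germ cell bridges (-1.44, SE 0.10). Of 13 further germline genes 2 fell, Rpl10l, a retrogene for a ribosomal protein (-2.52, SE 0.36), and the transcription factor gene Sohlh2 (-1.75, SE 0.32).

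Of these 59 genes, 8 lay lower under CHIR in EpiLC by 2-fold or more, against 0.929% of all genes. In the other direction it was 1 of 59, against 1.77%. In mESC under CHIR a 2-fold difference was found for 0 of 59, against 0.153% of all genes downwards and 0.185% upwards. A count of 0 of 59 is near these mESC shares, so by itself it sets no contrast between the states. Rpl10l had 22.9 with CHIR and PD, 25.5 with CHIR and 87.9 untreated in EpiLC, against 194, 222 and 224 for the same treatments in mESC. Hormad1 had 17.96, 18.13 and 49.4 in EpiLC, against 92.9, 99.7 and 125.6 in mESC, in the same order. The inhibitor-treated EpiLC were thus the lowest arrays for both, close to the lowest intensity of the table. Stag3 and Tex14 differed from this, with log2 differences of -0.05 and 0.04 under CHIR in EpiLC and EpiLC values below mESC in all 3 pairs. Tdrd5, a Tudor-domain gene of the piRNA pathway, went the other way, with 138 with CHIR and PD, 664 with CHIR and 155 untreated in EpiLC, against 61.1, 104.6 and 99.8 in mESC.

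**Figure D4:**
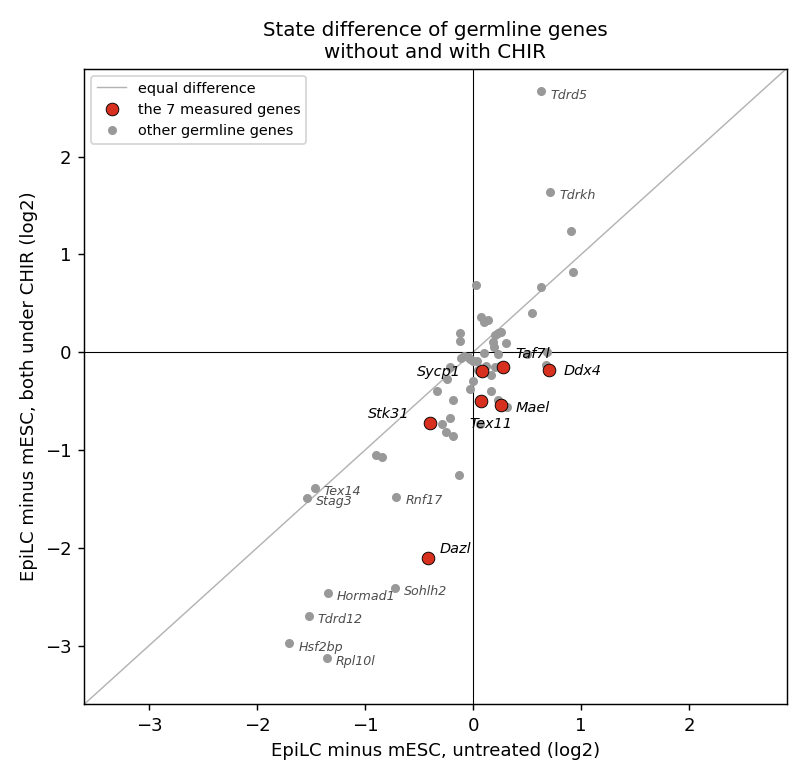
The x axis gives the log2 difference of EpiLC minus mESC in the untreated pair of arrays and the y axis that in the pair under CHIR, so the axes share no array. Red points are the 7 measured genes, grey points 59 other germline genes, and the diagonal marks equal differences. All 7 red points lie below the diagonal, Dazl the farthest at -0.42 and -2.11. Lying below the diagonal is the same quantity as a lower CHIR response in EpiLC than in mESC, not a further observation.

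Enzymes that write and remove DNA methylation also differed between the cultures. Of 9 measured genes 3 fell and 1 rose in EpiLC over the 3 treatments, where 4.15% of all genes did in each direction. The demethylation genes Tet2 (-2.90, SE 0.22, limma adjusted p = 0.0033) and Tet1 (-1.81, SE 0.26) fell, as did Dnmt3l (-2.65, SE 0.39), the catalytically inactive partner of the de novo methyltransferases, whereas the de novo methyltransferase gene Dnmt3a rose by 0.97 (SE 0.15). Dnmt3b, the other de novo enzyme, had 788 with CHIR and PD, 1279.5 with CHIR and 4847 untreated in EpiLC, against 817, 1289 and 2327 for the same treatments in mESC. Untreated EpiLC was thus the highest array for Dnmt3b, and the states were nearly equal under the inhibitors.

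Under CHIR in EpiLC, 4 of the 9 genes were at least 2-fold lower, where 0.929% of all genes were, namely Dnmt3b (-1.92), Dnmt3l (-1.84), Tet1 (-1.62) and Dnmt3a (-1.31). These are the same arrays in which Dazl, Mael and Ddx4 were low, and the part of these enzymes in the germline values was not tested. In mESC under CHIR, Dnmt3l was at -0.86, Dnmt3b and Dnmt3a at -0.85 and Tet1 at -0.27. The maintenance methyltransferase gene Dnmt1 stayed between 993 and 1281 over the 6 arrays, its partner Uhrf1 between 833 and 1481, and Tet3 between 91.2 and 123. Hells, a chromatin remodeller gene, had 1005.5 with CHIR and PD, 1002 with CHIR and 1969.5 untreated in EpiLC, against 1468, 1549 and 1914 for the same treatments in mESC, so that it was lower by a log2 difference of -0.97 under CHIR in EpiLC and of -0.30 in mESC.

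**Figure D5:**
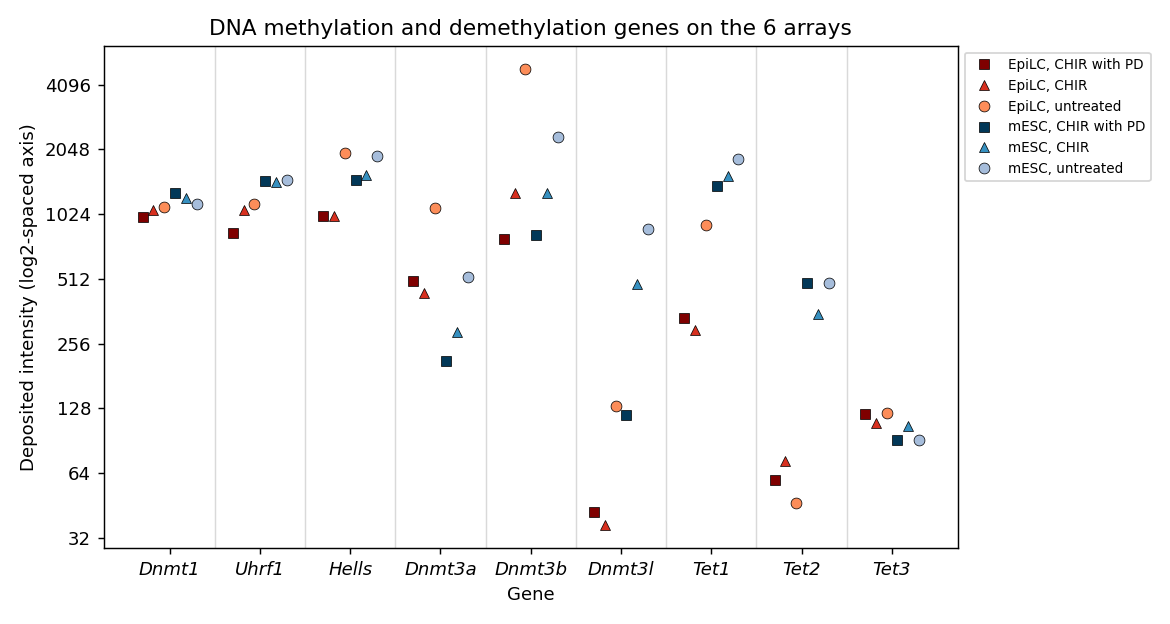
The y axis gives the deposited intensity on a log2-spaced axis and the x axis the 9 measured genes of DNA methylation and demethylation, with 1 point per array and the same symbols as for the germline genes. EpiLC arrays stand to the left and mESC arrays to the right of each gene. Dnmt3b is highest in untreated EpiLC at 4847, and Tet2 is between 46.6 and 73.1 in all 3 EpiLC arrays, below all mESC arrays.

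Genes of the complexes that repress germline genes were also measured. Of 19 measured, 2 rose and 0 fell in EpiLC, where 4.15% of all genes did in each direction. Their median log2 difference between the states was 0.01. E2f6 rose by 0.66 (SE 0.11, limma adjusted p = 0.0226) and Yaf2, a subunit of the polycomb complex that E2F6 joins, rose by 1.34 (SE 0.11). Pcgf6 (-0.38, SE 0.14) and L3mbtl2 (-0.52, SE 0.13), other subunits of that complex, did not pass the threshold. In no single-state treatment comparison was any of the 19 at least 2-fold different. Over all genes, between 0.153% and 1.49% were lower and between 0.185% and 2.62% higher by that much. A count of 0 of 19 is near these shares.

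Markers of other cells moved with some of the cultures. All 6 mesoderm markers were highest in EpiLC under CHIR, where their summed intensity was 10669, against 889 in untreated EpiLC, 558 in EpiLC with CHIR and PD and between 400.3 and 716 in mESC. Between the same 2 EpiLC arrays, CHIR with PD against CHIR, the log2 difference was -0.22 for Dazl, -0.53 for Mael and -0.18 for Ddx4. These sizes are under 2-fold and have no replicate. Of 6 primitive endoderm markers 5 were highest in EpiLC under CHIR, with a sum of 1542, against 540.5 in untreated EpiLC, 559 in EpiLC with CHIR and PD and 468 to 489 in mESC. The part of mesoderm or primitive endoderm cells in the germline values was not tested for any culture.

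Genes that specify primordial germ cells were lower in EpiLC. With CHIR and PD against untreated, 0 of 8 were 2-fold different in EpiLC, where 1.49% of all genes were lower and 2.62% higher. In mESC 1 of 8, Kit, was at least 2-fold higher (1.39), where 0.848% of all genes were lower and 0.618% higher. All 8 were measured, and 5 fell in EpiLC over the 3 treatments, where 4.15% of all genes fell. The 5 include Tfap2c (-3.40, SE 0.13, limma adjusted p = 0.00056) and Prdm14 (-2.15, SE 0.20), which naive stem cells also express. The summed intensity of the 8 was 1177 with CHIR and PD, 1319 with CHIR and 979 untreated in EpiLC. In mESC it was 3146, 2438 and 2990.4 for the same treatments. Nanos3, a marker of germ cells once specified, had 43.3, 39.5 and 33.4 in EpiLC, against 56.1, 64.7 and 41.5 in mESC, in the same order. For 2-cell-like markers, 7 measured of 9 listed, the sum was 273, 242 and 299 in EpiLC, against 286, 335 and 484 in mESC, in the same order. Summed trophoblast markers (6 genes) were at 3711, 1994 and 1014 in EpiLC, against 4152, 2344 and 2172 in mESC, and summed feeder fibroblast markers (7 genes) at 1637, 854 and 1159.5 in EpiLC, against 863, 668 and 775 in mESC, in the same order. In the primordial germ cell sum, Ifitm3 gave 721 of 1177 in EpiLC with CHIR and PD and 1800 of 2990.4 in untreated mESC. In the 2-cell-like sum, Zscan4c gave 246 of 484 in untreated mESC. Single genes also gave much of the other sums, 2064 of 3711 for trophoblast and 845 of 1637 for feeder markers in EpiLC with CHIR and PD. Against untreated EpiLC, 3 of the 6 trophoblast markers were higher there and 3 lower. Of the 7 feeder markers, 4 were higher and 3 lower. The part of these markers in the germline values was not tested. None of these markers was at 0, since the lowest intensity of the table was 16.

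The mean log2 intensity of the 7 genes was most like that of Polr1b, a subunit gene of RNA polymerase I (Pearson r = 0.996 over 6 arrays). L1td1, an RNA-binding protein gene of pluripotent cells, followed at 0.988, Urb1 at 0.987, and Slc35f2 and Txlng at 0.985. L1td1 had 271 with CHIR and PD, 472 with CHIR and 1656 untreated in EpiLC, against 638, 1043 and 1222 for the same treatments in mESC. With so few arrays likeness is common, and 83 of 2798 genes that varied by at least 2-fold had r over 0.9. Among the 7 themselves, r over the 6 arrays was highest for Ddx4 with Taf7l at 0.98 and for Mael with Tex11 at 0.97, and lowest for Ddx4 with Stk31 at 0.04. These r describe arrays that share a line and 3 treatments.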

How the data were processed

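The deposited values are linear intensities, 1 per transcript cluster, which the authors had already normalized. How they did so is not given in the sources used here. Mouse Gene 2.0 ST arrays, WT PLUS labelling and the software GeneSpring GX 11.5 come from the submitters' design text, which gives no genome build. Every array had a lowest value of 16, which was treated as a constant added to each intensity. Raw array files were not used here.

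Of 33793 probes, 23521 carried 1 gene symbol, 1814 several and 8458 none. Log2 intensities of probes with 1 symbol were averaged per gene, which gave 22180 genes, with no filter and no further scaling. A RefSeq gene table held the Entrez identifier of 23328 probes, with 0 symbols that differed. State and treatment effects were fitted additively over all genes with limma 3.58.1 in R 4.3.3, two-sided. In simulations of 22180 genes, the fit recovered 66.8% of 2-fold and 97.6% of 4-fold changes for EpiLC against mESC. For CHIR it recovered 20.2% and 93.4%, with equal effects in both states and both inhibitor treatments shifted alike. Errors were normal around the mean of each gene. A response confined to a single state was not simulated, so the shares do not cover it. Differences of 2 arrays are given as sizes with a 2-fold threshold.

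The 8 genes and all lists were chosen with earlier results of these data known. Genes outside the set were named by a rule, as up to 4 per list with the largest state difference, up to 2 more with the largest treatment difference, all DNA methylation genes, and the 5 most like the mean of the set among annotated genes that varied by at least 2-fold. Alternatives were the constant, quantile normalization, a filter on dim genes, the brightest probe, the moderation of variances and leaving out a pair of arrays.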

Additional observations from a re-analysis of the deposited data

How the results depend on the processing

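In the comparisons of 2 arrays, quantile normalization was the alternative that could turn the sign of a gene with 1 probe, and 62 of 63 values kept their direction, 10 of 10 where the difference was at least 2-fold. In the additive fit, near-zero values turned. Quantile normalization gave 0.015 for Stk31 (CHIR with PD against untreated), and without the untreated pair Ddx4 was at -0.13, Taf7l at -0.084, Tdrd1 at -0.21 and Dnmt3b at -0.032 for EpiLC against mESC. The cause was not tested. For EpiLC against mESC the 1841 genes past the threshold became 1016 with a constant of 4, 945 without the CHIR pair, 1209 without the CHIR with PD pair and 0 without moderation of variances (limma's linear fit, 3524 at an unadjusted p under 0.05, against 5317 with moderation). The 1 gene of the set past it, Stk31, became 0 with a constant of 4 or 64, with the dim-gene filter, which removes it, without moderation, and without the CHIR or the CHIR with PD pair. Without the untreated pair the count stayed at 1, but the gene was Dazl. For CHIR with PD against CHIR the 4 genes became 1 with a constant of 64, 7 with trend and robust moderation and 0 without moderation. For CHIR with PD against untreated the 6 became 1 with either constant, 53 with trend and robust moderation and 0 without moderation. Counts of the set at least 2-fold different became 2 for EpiLC against mESC under CHIR and 1 for CHIR in mESC with a constant of 4. With that constant Tex11 also joined Mael, Dazl and Ddx4 as at least 2-fold lower for CHIR in EpiLC. With a constant of 64 they became 1 for CHIR in EpiLC, 2 for CHIR with PD against untreated in EpiLC and 0 for the same in mESC. A larger constant compresses differences of dim genes by construction.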
